A study of Mus musculus with 2 samples.

Results

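Ang4, Reg3b, Reg3g, Reg4, Retnlb, Itln1 and Lypd8 encode secreted or surface proteins with which the gut epithelium meets bacteria and parasites. These 7 genes were chosen by name. Of them, 6 had a row among the 19294 gene rows of the count matrix, and Reg3b was not analysed here. They were followed in the 106 cells that the authors' cell table divides into "stem cells" (32), "secretory precursors" (32) and "absorptive precursors" (42), with 362 intraepithelial lymphocytes (IELs) as background. In the secretory precursors, Ang4, Reg4 and Itln1 were at least 4-fold above the other epithelial cells, while Lypd8 was highest in the absorptive precursors. By summed counts Retnlb was highest in stem cells, but 1 cell held 394 of its 399 stem cell UMIs. The subclusters and their split from the IELs were built from expression in these same cells. Differences between these groups are therefore descriptions and carry no test. The authors named the secretory precursors by markers that include Ang4 and Reg4.

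Colon crypt cells came from C57BL/6 mice with the genotype Tcf4 GfpCre/+ RosamTmG/+, aged between 4 and 10 months and with no pretreatment. In this reporter, Cre is driven by the Tcf4 promoter, so cells that never used it stay red (Tcf4 Lin-) and cells that have just begun to use it carry both colours. The driver is a knock-in that disrupts 1 Tcf4 allele, so every cell here was heterozygous for Tcf4, and no mice with both alleles intact were compared. Both kinds of sorted cells were profiled by Drop-seq, in which each captured transcript carries its cell's barcode and a molecular identifier (UMI) of its own, in 2 pools of samples (1 to 3 and 4 to 6). Barcodes carry the suffix X1 or X2, which no label ties to a pool, so all cells were treated as 1 sample without replicates. No barcode was found in both sets (0 shared). Intervals given below are 95% intervals that cover counting error only, since UMIs of 1 cell are not independent of each other.

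Ang4 is a microbicidal ribonuclease of the angiogenin family, made by Paneth and goblet cells. Reg3b and Reg3g are C-type lectins that act on bacteria, and Reg4 is a relative known as a marker of deep crypt secretory and enteroendocrine cells of the colon. Retnlb encodes RELM-beta, a goblet cell product that is induced by type 2 cytokines during worm infection. Itln1 encodes intelectin-1, a lectin for microbial sugars, and Lypd8 encodes a membrane-anchored protein that holds flagellated bacteria away from the colonic surface. Goblet cells belong to the secretory branch of the crypt and absorptive colonocytes to the other branch.

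These genes lie on separate chromosomes, apart from the Reg3 genes, which share a cluster on chromosome 6 (GRCm38, GENCODE M21). The bases before the start are shown for the secretory genes that had an entry and for Lypd8, which differed from them in its subcluster. In the RefSeq promoter table used here (GRCm38.p6), 6 of the 7 genes were matched, all but Retnlb. Each sequence covers the 250 bases before the start, 5′ to 3′ on the gene's strand. Capitals mark a match on either strand to TTCNNNGAA (a STAT-type motif), CAGCTG or CAGGTG (E-box motifs). The intervals are chr14:51773591-51773840 on the minus strand (Ang4), chr3:98221906-98222155 on the plus strand (Reg4), chr1:171535295-171535544 on the minus strand (Itln1) and chr11:58378782-58379031 on the plus strand (Lypd8, the first of its starts).
Ang4: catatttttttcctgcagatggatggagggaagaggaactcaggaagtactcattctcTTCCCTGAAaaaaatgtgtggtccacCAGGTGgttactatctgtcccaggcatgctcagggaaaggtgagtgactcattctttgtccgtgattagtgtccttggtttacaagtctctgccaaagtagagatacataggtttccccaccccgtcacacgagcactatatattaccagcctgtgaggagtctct
Reg4: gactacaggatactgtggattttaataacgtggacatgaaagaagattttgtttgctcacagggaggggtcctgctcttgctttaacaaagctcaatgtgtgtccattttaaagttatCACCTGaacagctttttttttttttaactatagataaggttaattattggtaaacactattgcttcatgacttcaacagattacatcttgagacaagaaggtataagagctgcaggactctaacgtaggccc
Itln1: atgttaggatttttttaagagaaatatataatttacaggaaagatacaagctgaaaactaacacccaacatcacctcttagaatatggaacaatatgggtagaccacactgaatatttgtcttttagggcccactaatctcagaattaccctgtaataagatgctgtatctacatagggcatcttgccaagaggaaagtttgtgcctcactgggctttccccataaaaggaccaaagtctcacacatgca
Lypd8: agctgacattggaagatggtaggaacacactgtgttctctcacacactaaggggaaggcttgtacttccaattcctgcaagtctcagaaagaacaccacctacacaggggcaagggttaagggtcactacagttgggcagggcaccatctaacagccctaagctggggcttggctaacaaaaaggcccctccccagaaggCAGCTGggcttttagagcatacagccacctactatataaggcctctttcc
In Ang4, TTCNNNGAA began at position -192 from the start and CAGGTG at -166. Reg4 had CAGGTG at -132 and Lypd8 had CAGCTG at -50, while Itln1 had none of the motifs searched. Another start of Lypd8, whose sequence is not shown, had CAGGTG at -213 and no CAGCTG. Of 32851 promoters of the same length, 7.02% held TTCNNNGAA, 17.2% CAGGTG and 13.0% CAGCTG. A second STAT-type spacing, TTCNNNNGAA (5.85%), and the TATA box TATAAA (12.4%) were also searched on both strands and matched in none of these 4. In Reg3b, TATAAA lay at -29, TTCNNNGAA at -129 and CAGGTG at -214. These are matches of letters, and no binding was measured.

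Each gene is protein coding. Ang4 lies at chr14:51763878-51773590 on the minus strand, Reg4 at chr3:98222156-98236748 on the plus strand and Retnlb at chr16:48816856-48818892 on the plus strand. Itln1 lies at chr1:171518122-171535294 on the minus strand, Lypd8 at chr11:58379043-58390728 on the plus strand and Reg3g at chr6:78466269-78468872 on the minus strand. Some members have close relatives. The longest run of identical bases between transcripts of Ang4 and Ang5 was 79, against 50 for Ang2, 41 for Ang6 and 31 for Ang. Reads that fall inside such a run cannot be told apart by sequence, so small counts of the other angiogenins are uncertain. Between Reg3g and Reg3b the longest run was 35 bases, and between Retnlb and Retnlg it was 26.

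Each level is a gene's UMI count, added up over a group of cells, per 1000000 UMIs of that group (CPM). The 3 subclusters held 69046, 128664 and 151780 UMIs, with medians of 995.5, 1820.5 and 1939.5 UMIs per cell. The IELs had a median of 1038 UMIs. The 5 epithelial genes (Epcam, Pigr, Krt8, Krt19 and Cdh1) had a summed level between 15669 and 23080 CPM in the subclusters and 143 CPM in the IELs. The authors called these cells epithelial by Epcam, Krt8 and Krt19 and gave Pigr as a further marker, so this sum is no check of the label. The 13 goblet genes summed to 68628 CPM in the secretory precursors, 21131 CPM in the stem cells and 7214 CPM in the absorptive precursors. The stem cell sum was 1459 UMIs, of which the deepest stem cell alone held 296 of Clca1, 262 of Spink4, 213 of Muc2 and 84 of Fcgbp. The 9 absorptive genes summed to 9705 CPM in the absorptive precursors, against 2611 and 2940 CPM in the secretory precursors and stem cells. The authors named the secretory precursors by genes that include Muc2, Spink4, Clca1, Fcgbp and Agr2 of the goblet list. They named the absorptive precursors by genes that include Gsdmc4, Lgals3, Aqp4, Krt8, Krt19 and Car2 of the absorptive list. Both sums therefore describe the labels and do not test them. Of the subcluster cells, 14 are listed as IELs in the authors' table of all cells, among them the 4 deepest epithelial cells. Of these 14, 2 are secretory precursors with no UMI of any member or of Muc2.

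**Figure D1:**
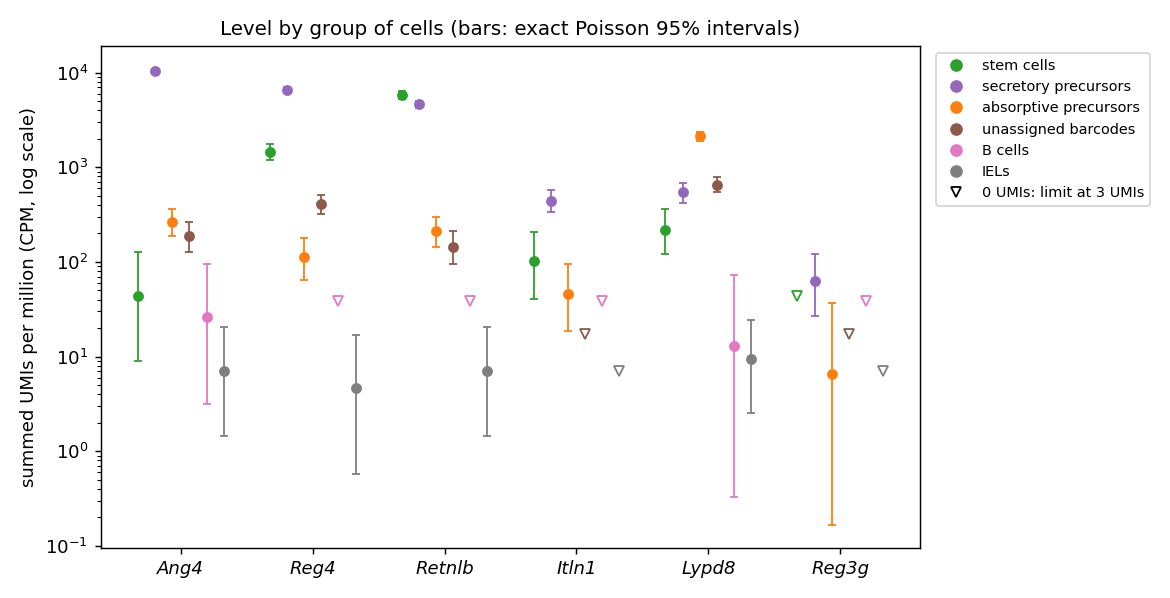
Level in CPM (log scale) of the 6 genes in the 3 epithelial subclusters, the unassigned barcodes, B cells and IELs, with exact Poisson 95% intervals. Open triangles stand for groups with 0 UMIs and lie at the level of 3 UMIs. Ang4 reached 10430 CPM in secretory precursors and 7.06 CPM in IELs, and Lypd8 was highest in absorptive precursors.

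Of the 6 members with a row, 5 had at least 20 UMIs in the epithelial cells, and Reg3g, with 9, was left out of the counts of members. Against the IELs, each of the 5 was at least 4-fold higher in the epithelial cells, as were 13.6% of the 5778 genes tested. The genes tested had at least 20 UMIs in the epithelial cells and IELs together, so genes seen mainly in IELs are among them. The median fold of these 5 members was 417, beside 0.956 over all genes tested. In the IELs no member had more than 4 UMIs, so the 5 reached the minimum of 20 through the epithelial cells. Their folds are descriptions, and nothing is read from this share. Ang4 was 562-fold higher (192 to 2727), Reg4 584-fold (161 to 4829), Retnlb 417-fold (142 to 2027) and Lypd8 125-fold (48.3 to 460), or 55.8-fold when barcodes 1 base apart were joined, unassigned ones included. Itln1 had no UMI in the IELs and was at least 28.8-fold higher, taking 0 as 3 UMIs over the group. Of the 362 IELs, 352 held no UMI of any member and 10 held UMIs of only 1. The largest count of a member in 1 IEL was 3 UMIs, of Lypd8. Shares of IELs with a UMI were 0.829% for Ang4 and Retnlb and 0.552% for Reg4 and Lypd8, and these shares serve as the background for those below.

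Within the epithelium, 3 of the 5 members with at least 20 UMIs were at least 4-fold higher in secretory precursors than in the other 2 subclusters, beside 2.12% of 3013 genes. The median fold over the 5 was 6.99, beside 0.837 over all genes. In the absorptive precursors, 4 of the 5 were at least 4-fold lower, beside 3.35% of genes, and 1 (Lypd8) was at least 4-fold higher, beside 2.42%. That of Lypd8 fell below 4-fold in set X2 (3.80), without the 4 deepest cells (3.93) and without the cells listed as IELs (3.86). In the stem cells, 2 of the 5 (Ang4 and Lypd8) were at least 4-fold lower, beside 3.95% of genes, and 4 were at least 2-fold lower, beside 16.1%. In set X2 alone, the stem cell level of Lypd8 was 0.378 of that in the other cells and no longer 4-fold lower. The subclusters were built from expression in these same cells, and Ang4 and Reg4 are among their naming markers, so nothing is read from these shares.

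**Figure D2:**
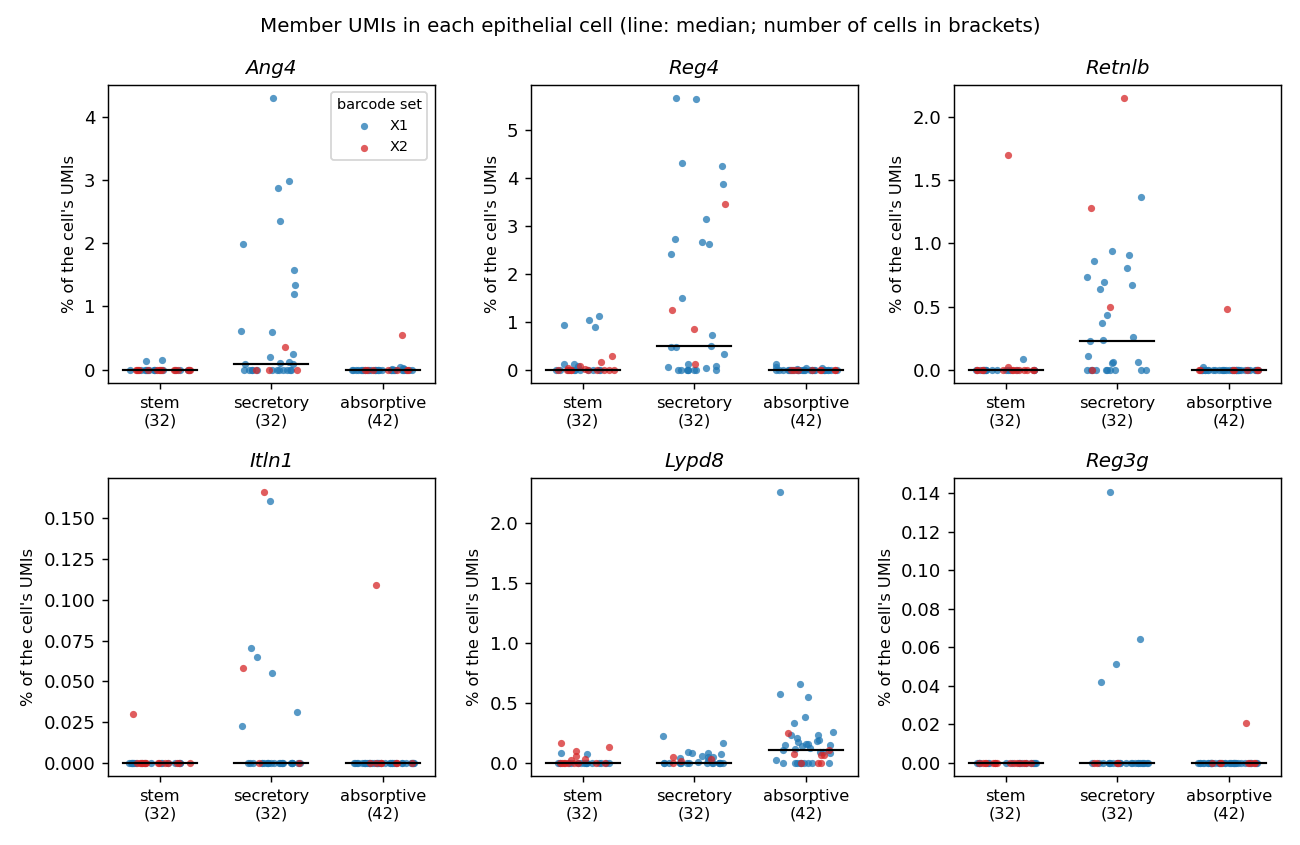
Share of each cell's UMIs that came from each gene, in percent, for the 32 stem cells, 32 secretory precursors and 42 absorptive precursors. Each point is 1 cell, coloured by barcode set, and lines are medians. The highest Ang4 share was 4.29% of a cell's UMIs, and most cells outside the secretory precursors held none.

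Ang4, the ribonuclease, was nearly limited to secretory precursors, which the authors named by markers that include it. They held 1342 UMIs, or 10430 CPM (9880 to 11004), against 40 UMIs in absorptive precursors (264 CPM, 188 to 359) and 3 in stem cells (43.4 CPM, 8.96 to 127). Per cell, the secretory precursors ranged from 0 to 384 UMIs with a median of 1.5, and 17 of 32 cells held a UMI (53.1%, 34.7% to 70.9%). Counts were thus uneven within this subcluster. In 4 deep cells of set X1 there were 384, 365, 321 and 169 UMIs, which made up 92.3% of the subcluster's total. They had between 7479 and 12861 UMIs, and Ang4 took 2.99%, 2.87%, 4.29% and 1.99% of them. Some shallow cells had shares of the same order, such as 18 Ang4 UMIs in a cell of 1146 UMIs (1.57%). A barcode of 636 UMIs had 15 (2.36%), but it is 1 of 3 barcodes that differ at 1 base only, which joined had 33 of 2340 UMIs (1.41%). The deepest secretory precursor (19945 UMIs, listed as an IEL in the table of all cells) held none.

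Outside the secretory precursors, Ang4 was found at length in 1 cell. Of the 40 UMIs in absorptive precursors, 35 came from 1 cell of set X2 that also held 31 Retnlb, 7 Itln1 and 66 Muc2 UMIs. The other 4 absorptive precursors with Ang4 held 1 or 2 UMIs each. The stem cell share, 2 of 32 cells (6.25%, 0.766% to 20.8%), had an interval that overlapped that of the IELs (0.171% to 2.40%). Ang4 was 53.6-fold higher (39.5 to 74.4) in secretory precursors than in the other epithelial cells. In set X1 alone the fold was 239. In set X2 it was 0.177, since the 4 secretory precursors had 2 Ang4 UMIs and the 8 absorptive precursors 35. Without the 14 epithelial cells that held at least 2 UMIs of lymphocyte genes, Cd74 included, the fold was 185, and the absorptive precursor with 35 UMIs was among the cells left out. With Cd74 not counted, only 2 cells were left out and the fold was 52.0.

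Reg4, the C-type lectin relative, was spread over more cells. Secretory precursors held 842 UMIs (6544 CPM, 6110 to 7002), stem cells 101 (1463 CPM, 1191 to 1777) and absorptive precursors 17 (112 CPM, 65.2 to 179). Per secretory precursor, counts ran from 0 to 94 UMIs with a median of 20.5, and 24 of 32 cells held a UMI (75.0%, 56.6% to 88.5%). The 4 highest cells made up 40.5% of the total, less than for Ang4. The count was 94 UMIs in 3 cells of very different depth, with 11080, 2421 and 2183 UMIs, where it took 0.848%, 3.88% and 4.31% of the cell. The highest shares, 5.66% and 5.65%, were in barcodes of 636 and 1045 UMIs. These are 2 of 3 barcodes that differ at 1 base only and may be 1 cell. Joined, the 3 had 123 Reg4 UMIs of 2340 (5.26%). When each cell counted equally, by averaging CPM over cells, the level in secretory precursors was 14787 CPM and the fold 21.3, against 12.2 (10.1 to 15.0) from summed UMIs.

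In stem cells, Reg4 was carried by few cells. The counts 44, 25, 15 and 6 UMIs, in 4 cells of set X1, made up 89.1% of the stem cell total and took 0.927%, 1.11%, 0.899% and 1.04% of the cells' UMIs. These 4 cells also held 16, 31, 13 and 8 UMIs of Spink4, a goblet and enteroendocrine secretory gene, and 0 or 1 of Clca1. Stem cells of set X2 had 8 Reg4 UMIs over 5 cells (185 CPM), against 93 UMIs over 7 cells in set X1 (3620 CPM). Of the absorptive precursors, 5 of 42 held Reg4, with at most 9 UMIs. The stem cell share of 37.5% (21.1% to 56.3%) lay above the 0.552% of IELs, which had a like median depth. Without the 14 cells with at least 2 lymphocyte UMIs, the fold of secretory precursors was 38.3, and with Cd74 not counted it was 11.9.

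Markers of other secretory types gave few or no UMIs in the same cells, at a median depth of 1606.5 UMIs. Chgb, the enteroendocrine gene with a row, had 0 UMIs in the 106 cells. With 0 taken as 3 cells, this is a limit of 2.83% of cells with a UMI, and it sets no limit on cells that express it. Of the tuft genes, Dclk1 had 0 UMIs and Trpm5 and Pou2f3 had 1 each. Lyz1, the Paneth gene with a row, had 0 UMIs, and the macrophage genes had 1 UMI in all.

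Retnlb, the goblet cell product RELM-beta, turned on a single cell. By summed UMIs it stood at 5779 CPM (5226 to 6375) in stem cells, above the 4648 CPM (4283 to 5036) of secretory precursors, and absorptive precursors had 211 CPM (144 to 298). Yet only 3 of 32 stem cells held a UMI, with 394, 4 and 1, while 21 of 32 secretory precursors did (65.6%, 46.8% to 81.4%). The cell with 394 UMIs is the deepest of all epithelial cells (23205 UMIs, set X2). It also held 213 UMIs of Muc2, the main mucin of goblet cells, and 296 of Clca1, a goblet cell metalloprotease, and the table of all cells lists it as an induced IEL. Without it, Retnlb was 24.8-fold higher in secretory precursors than in the other epithelial cells, against 2.38 (2.10 to 2.70) with it. The fold of stem cells went from 2.57 to 0.0486, so its direction turned.

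In secretory precursors, Retnlb ranged from 0 to 155 UMIs with a median of 4. The highest cells held 155, 88, 73 and 60 UMIs, or 62.9% of the total, and the first of them, of set X2, gave it 2.15% of its UMIs. In absorptive precursors, 31 of the 32 UMIs came from the same cell that held 35 Ang4 UMIs. Averaged over cells, CPM was 4170 in secretory precursors, against 564 for stem cells and 119 for absorptive precursors. With each cell thinned to 800 UMIs, a Retnlb UMI was held by 54.6% of secretory precursors, against 7.17% of stem cells, 3.22% of absorptive precursors and 0.117% of IELs. Before thinning, these shares were 65.6%, 9.38%, 4.76% and 0.829%. Thinning left out 3, 9, 6 and 98 shallower cells.

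Itln1, the lectin intelectin-1, was low and found in deep cells. Secretory precursors held 57 UMIs (443 CPM, 336 to 574), in 8 of 32 cells (25.0%, 11.5% to 43.4%) with at most 13 UMIs each. Stem cells held 7 UMIs (101 CPM, 40.8 to 209) and absorptive precursors 7 (46.1 CPM, 18.5 to 95), and those intervals overlapped. In each of these 2 subclusters all 7 UMIs came from 1 cell, which was the Retnlb-rich stem cell and the Ang4-bearing absorptive precursor. Itln1 was 6.99-fold higher (3.84 to 13.6) in secretory precursors. Every one of the 10 cells with Itln1 also held Retnlb. With cells thinned to 800 UMIs, 12.5% of secretory precursors held an Itln1 UMI, and no IEL did.

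Lypd8, the membrane-anchored protein of the colonic surface, followed the opposite pattern. Absorptive precursors held 325 UMIs (2141 CPM, 1915 to 2387), secretory precursors 70 (544 CPM, 424 to 687) and stem cells 15 (217 CPM, 122 to 358). Lypd8 was 4.98-fold higher (3.91 to 6.40) in absorptive precursors and 6.48-fold lower (3.88 to 11.7) in stem cells than in the other epithelial cells. Per absorptive precursor, counts ran from 0 to 78 with a median of 3 UMIs, and 30 of 42 cells held a UMI (71.4%, 55.4% to 84.3%). The highest cell by share had 65 UMIs among 2875 (2.26%), and the cell with 78 UMIs was the deepest absorptive precursor (23171 UMIs). These 2 and the cells with 33 and 19 UMIs made up 60.0% of the total. Lypd8 counts per 10000 UMIs correlated with the depth of the cell (Spearman's rho 0.43 over 106 cells), so thinned shares are given as well. At 800 UMIs, 55.8% of absorptive precursors held a UMI, against 21.8% of secretory precursors and 12.3% of stem cells, and 0.277% of IELs did. The unthinned shares were 71.4%, 46.9%, 25.0% and 0.552%.

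Reg3g, the bactericidal lectin, was close to the limit of detection. It had 9 UMIs in the 106 epithelial cells and none in IELs, B cells or stem cells. For the stem cells, 0 UMIs allows a level of up to 43.4 CPM, and for the IELs up to 7.06 CPM. Secretory precursors held 8 UMIs (62.2 CPM, 26.8 to 123), as 5, 1, 1 and 1 in 4 barcodes of set X1, and 1 absorptive precursor of set X2 held the other. These 4 barcodes have the same first 11 of 12 bases and differ at base 12 only. Joined, they are 1 cell of 9430 UMIs with 8 Reg3g, 8 Lypd8, 2 Retnlb, 0 Ang4 and 0 Reg4 UMIs. Counted this way, Reg3g was found in 1 of 26 secretory precursors. In all, 7 such families of barcodes 1 base apart were found among the epithelial cells. One of 3 secretory barcodes held 33 Ang4, 123 Reg4 and 24 Retnlb UMIs. Joining them left 15 of 26 secretory precursors with Ang4, 21 with Reg4 and 17 with Retnlb, and moved no fold between subclusters of the other 5 members by more than 1.5 times.

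**Figure D3:**
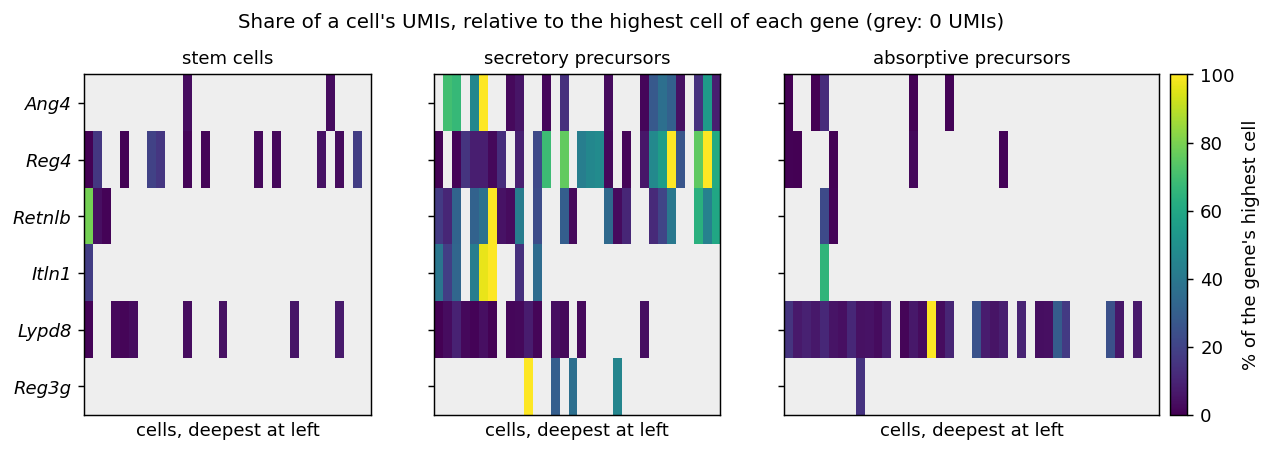
Each cell's share of UMIs from each gene, as a percent of the gene's highest cell, with 1 column per cell and the deepest cells at the left of each subcluster. Grey cells held 0 UMIs. Retnlb, Itln1 and Reg4 in stem cells were carried by few columns, Itln1 lay at the deep end of the secretory precursors, and Reg3g lay in columns without Ang4 or Reg4.

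Most secretory precursors held several members. Of 32 cells, 2 had none, 2 had 1, 10 had 2, 9 had 3, 5 had 4 and 4 had 5. Of the stem cells, 14 had none and 13 had 1, and of the absorptive precursors 12 had none and 21 had 1. Within secretory precursors, Ang4 and Reg4 were found together in 15 cells, where independent detection gives 12.8. Ang4 and Retnlb were together in 14 cells (11.2 by independent detection) and Retnlb and Itln1 in 8 (5.25). The family of 3 barcodes counts 3 times in the pairs of Ang4, Reg4 and Retnlb. With barcodes 1 base apart joined, 26 cells were left, of which 13 held Ang4 and Reg4 (12.1 by independent detection), 12 held Ang4 and Retnlb (9.81) and 8 held Retnlb and Itln1 (5.23). Itln1 and Lypd8 shared 8 cells (3.75), and Reg4 and Lypd8 shared 11 (11.2). Thinned to 800 UMIs, Itln1 and Lypd8 were together in 1.10 cells on average, against 0.752 by independent detection. For Ang4 and Retnlb, these values were 9.68 and 6.64. Ang4 and Reg4 shared cells but in unequal amounts. The cell with 384 Ang4 UMIs had 0 of Reg4, and the cells with 94 Reg4 UMIs had 0, 2 and 13 of Ang4.

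Reg4 was also found in secretory precursors without Clca1. Of the 10 secretory precursors with 0 Clca1 UMIs, 3 held 94, 45 and 35 Reg4 UMIs, with 286, 15 and 110 UMIs of Spink4. The other 7 held no Reg4, and they include the 4 Reg3g barcodes and the 2 cells listed as IELs.

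The 3 genes most like each member were found by Spearman's rho of counts per 10000 UMIs over the 106 cells, among 4493 genes seen in at least 10 cells. These values describe 1 set of cells that share libraries and depth. Ang4 was most like Clca1 (0.66), Mptx1 (0.61), a pentraxin of the gut epithelium, and Fcgbp (0.57), a mucus protein. Reg4 was most like Mptx1 (0.75), Spink4 (0.75) and Fcgbp (0.70). Retnlb was most like Muc2 (0.73), Clca1 (0.71) and Fcgbp (0.68). Muc2, Clca1, Fcgbp and Spink4 are genes of mucus-producing cells. Within the secretory precursors alone, Ang4 had the same 3 genes, Reg4 shared 2 and Retnlb 1. Itln1 was most like Rab27a (0.78), Lbh (0.75) and Tpsg1 (0.73), of which Rab27a and Lbh had 15 and 13 UMIs in the epithelial cells, so little can be read from them. Lypd8 was most like Cox7a2 (0.61), Fth1 (0.54) and Pycard (0.54), and none of these was in its list within the secretory precursors. Among the members, rho was 0.61 for Retnlb and Itln1, 0.57 for Ang4 and Retnlb, 0.50 for Reg4 and Retnlb, 0.47 for Ang4 and Reg4 and -0.20 for Reg4 and Lypd8. With the depth of the cell, rho was 0.44 for Itln1 and 0.43 for Lypd8, but 0.12 for Ang4 and 0.06 for Reg4.

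**Figure D4:**
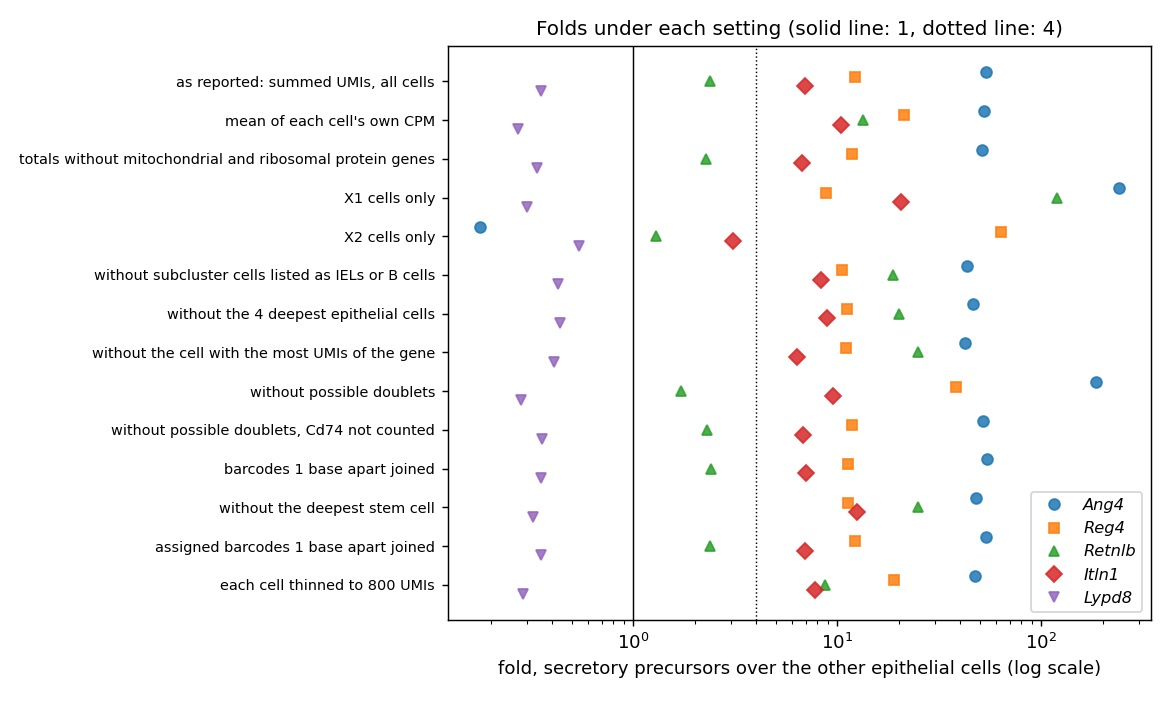
Fold of each member in secretory precursors over the other epithelial cells (log scale) under each way of counting, with solid and dotted lines at 1 and 4. The value of Itln1 in set X1 is a lower bound. Reg4 stayed above 4 throughout, Lypd8 below 1 throughout, Ang4 fell below 1 in set X2 only, and Retnlb ran from 1.30 to 120.

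Folds were also taken within each barcode set. Retnlb was 120-fold higher in secretory precursors of set X1 and 1.30-fold in set X2, which holds the Retnlb-rich stem cell. Reg4 was 8.79-fold higher in set X1 and 63.7-fold in set X2. Itln1 was at least 20.5-fold higher in set X1, with 43 UMIs against 0, and 3.09-fold in set X2. Lypd8 was lower in both sets, at 0.300 and 0.541 of the other cells' level. Set X2 holds 27 epithelial cells, of which 4 are secretory precursors with 22279 UMIs, so its values rest on few cells. Since the sets are tied to no pool, mouse or sort, such differences cannot be told apart from differences between cells.

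Of the relatives of these genes, 7 of 20 had a row and 1 (Ang) had at least 20 UMIs in the epithelial cells. Ang, the founding angiogenin, held 21 UMIs in secretory precursors, 8 in absorptive precursors and 1 in stem cells, and was 4.00-fold higher in secretory precursors (1.76 to 9.93). Ang5 and Ang6 had 11 and 7 UMIs, all in secretory precursors, beside the shared sequence given above. Reg3a had 1 UMI.

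Of 37 other antimicrobial genes, 18 had a row and 6 had at least 20 UMIs in the epithelial cells. In secretory precursors, 1 of the 6 was at least 4-fold higher, beside 2.12% of all genes. Another 2 were at least 4-fold lower, beside 4.45%, and the median fold of the 6 was 1.82. Mptx1 was 12.0-fold higher (11.3 to 12.8), with 8329 UMIs there, against 636 in stem cells and 556 in absorptive precursors. Wfdc2, a protease inhibitor, was 4.70-fold lower (2.74 to 8.66), with 101 of its 136 UMIs in absorptive precursors. Nlrp6, a sensor of microbial products, was 8.16-fold lower (2.06 to 70.7) on 30 UMIs. Zg16, a lectin that binds Gram-positive bacteria, held 413 UMIs in 5 secretory precursors, 344 in 6 absorptive precursors and none in stem cells. With 0 taken as 3 UMIs, the stem cell limit was 43.4 CPM. The highest Zg16 counts were 257 and 138 in secretory precursors, and 185 and 128 in absorptive precursors, so few cells carried it. Pglyrp1, a peptidoglycan binder, and Sprr2a3 were 1.58-fold (1.03 to 2.41) and 3.09-fold (1.85 to 5.26) higher in secretory precursors.

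Single genes of the inducing pathways had few UMIs. Of 18 genes, 10 had a row and 2 had at least 20 UMIs, and neither was 4-fold different in any subcluster. Together, the 10 summed to 202 CPM in secretory precursors, 319 CPM in stem cells and 237 CPM in absorptive precursors, against 273 CPM in IELs. Il13ra1, a receptor chain for type 2 cytokines, held 12 UMIs in secretory precursors, with 3 and 8 in the stem and absorptive groups. Stat3, which carries signals from IL-22, held 4, 6 and 10 UMIs in the same order. At these counts, differences between subclusters were not detectable, and their intervals for secretory precursors ran from 0.756 to 4.68 and from 0.104 to 1.33.

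The 10 lymphocyte genes were at low levels in the subclusters. They summed to 7 UMIs in secretory precursors (54.4 CPM), 12 in stem cells (174 CPM) and 43 in absorptive precursors (283 CPM), against 8133 CPM in IELs. Cd74, an antigen presentation gene that is highest in B cells, gave 5, 12 and 31 of these UMIs. Of the 7 lymphocyte genes with at least 20 UMIs in epithelial cells and IELs together, 6 were at least 4-fold lower in the epithelial cells. The other 1, Cd74, was at least 4-fold higher there than in IELs. The authors' markers of the IELs include Cd7 and Cd8a of this list, so the count of lower genes describes the labels. No share of all genes was taken beside it, and nothing is read from it. Several cells rich in members held UMIs of the 10 genes. Leaving out the 14 cells with at least 2 of these UMIs left 17 of 101 Reg4 UMIs in stem cells, 977 of 1342 Ang4 UMIs in secretory precursors, and 4 of 40 Ang4, 1 of 32 Retnlb and 182 of 325 Lypd8 UMIs in absorptive precursors. Lypd8 was highest in the subcluster with the most of these UMIs, and its fold there was 6.02 without the cells with at least 2 of them. Their part in the levels of the members was not tested further.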

How the data were processed

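Drop-seq counts from 2 pools of sorted Tcf4 Lin- and double-positive colon crypt cells were used. The authors' counts are UMIs for each gene symbol in each barcode. Builds mm10 and hg19 and the tools Picard 1.137 and STAR 2.5.0 are listed in the submitters' processing notes. The counts were used as deposited, as whole numbers without normalization. The gene annotation is not given in the sources used here. The paper mentions filtration steps before its clustering, whose settings were not found in these sources. For its trajectory analysis, it kept cells that expressed Pigr and lacked T cell markers. The matrix holds 19294 genes and 1117 barcodes, with between 504 and 23205 UMIs per assigned cell.

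Cells were assigned by the authors' cell tables alone, and 601 barcodes are unassigned. Members and gene lists were chosen with earlier results of these data known. Named genes were the members, the 3 genes most like each by Spearman's rho, and list genes with at least 20 UMIs in the epithelial cells. Other list genes named (Ang5, Ang6, Reg3a and the cell type markers) fall outside this rule and were chosen after their values were seen. Levels carried exact Poisson intervals, shares exact Clopper-Pearson intervals and folds exact binomial intervals (all 95%), and 0 was taken as 3 counts. PCR and capture error are not covered. No doublet caller was run. Cells with at least 2 lymphocyte-gene UMIs were left out as an alternative, as were single cells, barcode sets and barcodes 1 base apart, and depth was fixed by thinning to 800 UMIs (100 draws). Joining of assigned barcodes (also for co-detection), the alternatives for the count of members higher in absorptive precursors, leaving out the deepest stem cell and leaving Cd74 out of the lymphocyte genes were chosen after seeing the data. Fold computation was tested on simulated data. Python 3.11.15, numpy 2.4.6, pandas 2.3.3, scipy 1.17.1 and Biopython 1.88 were used, with GENCODE M21 and RefSeq promoters. With 1 sample, no p-value was computed. Human cells and the authors' sorting and staining experiments were not used here.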

Additional observations from a re-analysis of the deposited data

Results flagged for a closer look

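The 601 barcodes that the authors' cell tables leave unassigned, with a median of 212 UMIs, entered no comparison except the alternative in which barcodes 1 base apart were joined. They held UMIs of 4 members at levels above those of the IELs. Lypd8 stood at 658 CPM (542 to 791), Reg4 at 408 CPM (318 to 515), Ang4 at 186 CPM (127 to 263) and Retnlb at 146 CPM (94.2 to 215), against IEL levels between 4.70 and 9.41 CPM. In 1 unassigned barcode there were 42 Lypd8 UMIs, or 37.2% of the total, and in another 28 Reg4 UMIs, or 40.0%. Reg3g and Itln1 had none there, which allows up to 17.5 CPM.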

How the results depend on the processing

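Without replicates, the results can be set only against other ways of counting. The number of members at least 4-fold higher in secretory precursors was 3, and in set X2 alone it was 1 (Reg4). The number at least 4-fold lower in stem cells was 2, and it was 4 with CPM averaged over cells and 4 with a fold of at least 2 (which 16.1% of genes passed). The number at least 4-fold lower in absorptive precursors was 4, and 2 in set X2. The number at least 4-fold higher in absorptive precursors was 1 (Lypd8), and 0 without cells listed as IELs and 0 without the 4 deepest cells. The other 71 values of these counts and of co-detection stayed within 1.5 times, but not always with the same members. Of 15 settings each, the members were the same in 5 for secretory precursors (in 8 of the others Retnlb joined), 5 for stem cells, 11 and 12 for absorptive precursors lower and higher, and 14 against IELs. In set X2, Lypd8 was lost in stem cells (0.378) and in absorptive precursors (3.80). For Ang4 the fold in secretory precursors turned in set X2 (0.177), because 1 absorptive precursor held 35 UMIs there. Retnlb ranged from 1.30 to 120, Reg4 from 8.79 to 63.7, Itln1 from 3.09 to 20.5 and Lypd8 from 0.272 to 0.541. No paired analysis was possible because all cells form 1 group, whose barcode sets are tied to no label. Depth limits Reg3g (9 UMIs) and the inducing pathways.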
